A study of Mus musculus with 2 samples.

Results

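Chromosomes 6, 7, 10 and 18 were the 4 mouse autosomes with the fewest anti-Nr4a2 peaks per Mb, and their 356 peaks of a deposited list of 7680 are described here. The chromosomes were chosen by this measured density, and every peak on them is included: 47 on chromosome 6, 153 on chromosome 7, 58 on chromosome 10 and 98 on chromosome 18. The list came from chromatin immunoprecipitation and sequencing (ChIP-seq) of BV2, a line of mouse microglia made immortal in culture, with 1 library precipitated by an antibody against Nr4a2 and 1 library of unprecipitated input DNA. Both library names in the file header bear the tag H2O2, whereas the labels state no treatment. There were no replicates, so no value below has a measure of variation between cultures. After removal of duplicates, 20365794 ChIP tags and 22520884 input tags remained.

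Nr4a2, also called Nurr1, is an orphan nuclear receptor of the NR4A family, which binds DNA as a monomer at an extended half-site or as a dimer with partners such as the retinoid X receptor. It is best known for the development and upkeep of midbrain dopamine neurons, and in microglia for restraining inflammatory genes. A peak in such a list is a stretch where the caller counted more ChIP tags than a local background, and it does not by itself show that Nr4a2 touches the DNA.

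Few of these peaks reached a listed transcription start. RefSeq promoter windows on GRCm38.p6, the assembly of mm10, ran from 250 bases before to 50 after a start and were at hand for chromosomes 6, 7 and 10. Of 258 peaks there, 4 (1.55%, exact Clopper-Pearson 95% interval 0.424 to 3.92) overlapped a window, against 112 of 6640 peaks (1.69%, 1.39 to 2.03) on the other 15 autosomes. The upstream bases that lay under the peak are shown for the promoters of Tmem219 and LOC115486548, as examples of sequence just before a start that a peak of the sparse chromosomes covers. Both genes are on the minus strand, letters run 5′ to 3′ towards the start, and capitals mark CG pairs.
Tmem219, chr7:126898279-126898425, minus strand: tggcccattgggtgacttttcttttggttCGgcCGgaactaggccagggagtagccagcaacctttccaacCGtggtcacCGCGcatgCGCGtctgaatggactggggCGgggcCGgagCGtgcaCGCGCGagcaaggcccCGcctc
LOC115486548, chr7:128489374-128489427, minus strand: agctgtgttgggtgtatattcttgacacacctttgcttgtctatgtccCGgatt
The stretch at Tmem219, a transmembrane protein gene, held 14 CG pairs in 147 bases and 65.3% G and C, and it lies inside the longest record of that gene. The stretch at LOC115486548, a long noncoding RNA gene, held 1 CG pair in 54 bases and 44.4% G and C. The other promoters touched were those of Aak1 and 2610306M01Rik, which share 1 peak on chromosome 6, and of Gm10575 on chromosome 7. The peak at Aak1 covered 37 bases before its listed start, with 8 CG pairs and 89.2% G and C, and it covered 223 bases of the window of 2610306M01Rik. The NR4A monomer word AAAGGTCA was in none of these 5 windows on either strand, and 1.51% of all 32851 windows held it. The shorter half-site AGGTCA, which is part of that word, was in the overlapping windows of Aak1 and 2610306M01Rik and in 16.3% of all windows.

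The density that chose these chromosomes is given as a description. Together they held 0.699 peaks per Mb (exact Poisson 95% interval 0.628 to 0.775) over the 509.6 Mb between their first and last annotated genes, whereas the other 15 autosomes held 3.44 per Mb (3.36 to 3.52). The ratio was 0.203 (0.182 to 0.226), and at the density of the other autosomes 1752 peaks would have been listed in place of 356. Chromosome 6 was lowest with 0.315 per Mb (0.231 to 0.418), and chromosome 10 had 0.455 (0.346 to 0.588). Chromosome 7 had 1.05 per Mb (0.893 to 1.23) and chromosome 18 had 1.12 (0.910 to 1.37). The intervals of chromosomes 6 and 10 overlapped, as did those of 7 and 18, while both of the first pair lay below both of the second. Chromosome 18 was the last inside the rule and chromosome 14, with 1.42 per Mb, the first outside it.

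**Figure D1:**
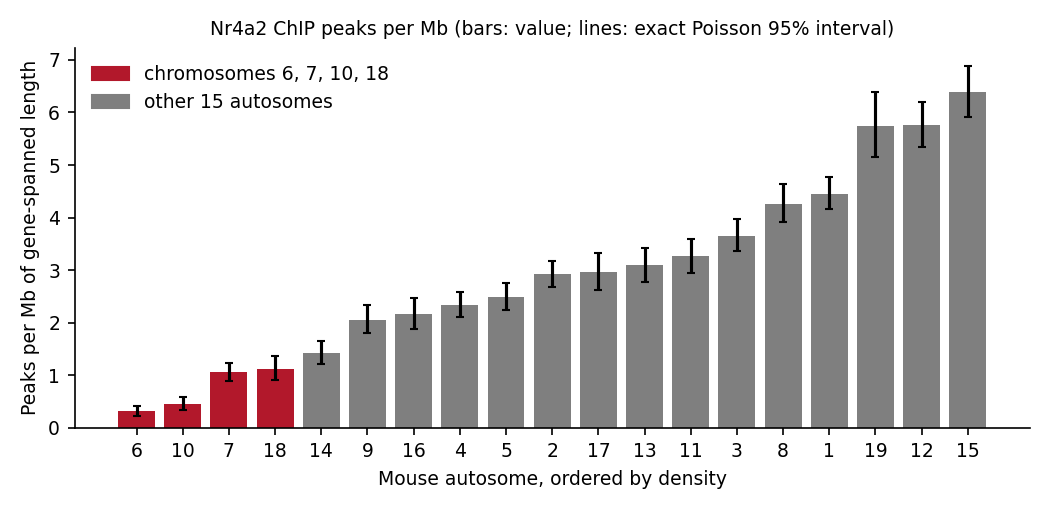
Peaks per Mb of the length between the first and last annotated gene for each of the 19 autosomes, ordered by density; bars are values, lines exact Poisson 95% intervals, and red bars are chromosomes 6, 7, 10 and 18. The red bars run from 0.315 to 1.12 per Mb, next to 1.42 on chromosome 14 and up to 6.38 on chromosome 15.

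Together the 4 chromosomes carried 9.16 coding genes per Mb and the other autosomes 8.28, so that peaks per 100 coding genes were 7.63 and 41.5. Chromosome 7, with 13.97 coding genes per Mb, had 7.54 peaks per 100 coding genes, and chromosome 18, with only 5.84 genes per Mb, had 19.2. Chromosomes 6 and 10, with 7.53 and 7.85 coding genes per Mb, had 4.17 and 5.79 peaks per 100 coding genes. Chromosome 7 alone lay above the gene density of the other autosomes, and chromosomes 6, 10 and 18 lay below it.

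Chromosome 7 was not sparse along its whole length. Up to 100 Mb it held 47 peaks, or 0.470 per Mb (0.345 to 0.625), close to chromosome 10, while beyond 100 Mb it held 106, or 2.34 per Mb (1.91 to 2.83). The boundary was placed after the counts were seen. In 10 Mb bins, the 10 bins up to 100 Mb held between 2 and 8 peaks, and the following bins held 16, 21, 31, 20 and 18. The last of these, from 140 Mb, was not a full bin. Its 18 peaks came from a shorter stretch, and the count does not show a fall in density. The distal block therefore supplied 106 of the 356 peaks from 45.3 Mb, and it was also gene-rich, with 16.9 coding genes per Mb against 12.6 in the rest of the chromosome. No bin of chromosome 6 held more than 6 peaks and none of chromosome 10 more than 9. On chromosome 18 the count ranged from 5 in the bin from 10 Mb to 20 in the bin from 60 Mb. Its last bin, from 90 Mb, held 1 peak but was not a full bin.

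Long stretches held no peak. On chromosome 10 neighbouring summits were up to 15.8 Mb apart, from 22863702 to 38698222, with 76 coding genes in between. The longest stretch on chromosome 6 was 11.4 Mb, from 47209695 to 58606928, and its 138 coding genes included all 11 genes of the Hoxa cluster, the homeobox genes that pattern the body axis and limbs. The longest stretches on chromosomes 7 and 18 were 7.40 Mb, with 29 coding genes, and 4.51 Mb, with 1. The median distance between neighbouring summits was 2283 kb on chromosome 6, 1423 kb on chromosome 10, 609.5 kb on chromosome 18 and 397 kb on chromosome 7. It was 138 kb on the other autosomes. Long stretches without a peak also occurred there. The longest distance between neighbouring summits ranged from 1179 kb on chromosome 19 to 15311 kb on chromosome 9.

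The peaks took up positions around genes in much the same proportions as on the other autosomes. Summits no more than 1000 bp from the first or last base of a gene were counted at gene ends, pseudogenes left out. Such ends held 29 of the 356 summits (8.15%, 5.52 to 11.5), against 572 of 6640 (8.61%, 7.95 to 9.32) on the other autosomes. The odds ratio was 0.941 (exact 95% interval 0.614 to 1.39) and the difference -0.468 percentage points (-2.98 to 2.90), with a two-sided Fisher's exact p of 0.846 and the same value after Benjamini-Hochberg adjustment over 3 classes. Gene bodies held 177 summits (49.7%) against 48.6%, an odds ratio of 1.05 (0.841 to 1.30, adjusted Fisher exact p = 0.846). Between genes lay 150 summits (42.1%) against 42.8%, an odds ratio of 0.973 (0.778 to 1.21, adjusted Fisher exact p = 0.846). No difference was detected in any class, and the interval for gene ends still allows a share 2.98 points lower or 2.90 points higher. The units of these tests are peaks of a single list, so other cultures are not covered. The tests and intervals also take peaks as independent, whereas gene-end shares differed between single chromosomes. Chromosome 14 was at 2.82% (0.923 to 6.47) and chromosome 17 at 14.6% (10.7 to 19.3). The intervals for the 4 chromosomes against the other 15 may thus be too narrow.

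Gene ends also take up similar parts of both sets of chromosomes. Windows of 1000 bp around gene ends covered 5.45% of the bases of the 4 chromosomes and 5.11% of the others. The share of summits over the share of bases was thus 1.50 (1.01 to 2.11) and 1.68 (1.55 to 1.82), with intervals from the counts of summits alone. For gene bodies these ratios were 1.10 and 1.09, and between genes 0.851 and 0.848. Per Mb of gene-end sequence the sparse chromosomes held 1.04 peaks and the others 5.79, and per Mb between genes 0.594 and 2.91. The lower density thus appeared in gene ends, gene bodies and the spaces between genes alike.

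Within the 4 chromosomes the gene-end share was 2 of 47 on chromosome 6 (4.26%, 0.520 to 14.5) and 4 of 58 on chromosome 10 (6.90%, 1.91 to 16.7). It was 7 of 98 on chromosome 18 (7.14%, 2.92 to 14.2) and 16 of 153 on chromosome 7 (10.5%, 6.10 to 16.4). All these intervals overlap, and the single chromosomes among the other 15 ranged from 2.82% on chromosome 14 to 14.6% on chromosome 17. The distal block of chromosome 7 held 13 of the 29 gene-end peaks (12.3% of its 106). Without the block, the share on the sparse chromosomes was 16 of 250 (6.40%), an odds ratio of 0.725 (0.405 to 1.21, adjusted Fisher exact p = 0.374). Chromosome 10 had the largest share between genes, 32 of 58 (55.2%, 41.5 to 68.3), and chromosome 7 the smallest, 54 of 153 (35.3%, 27.7 to 43.4).

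**Figure D2:**
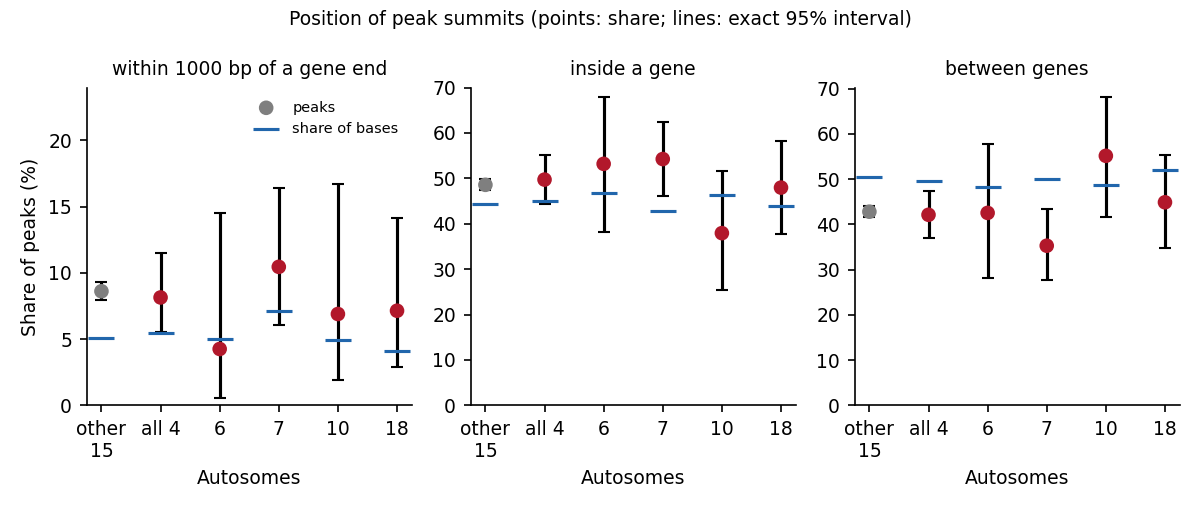
Share of summits within 1000 bp of a gene end, inside a gene and between genes, in percent, for the other 15 autosomes, the 4 sparse chromosomes together and each of them; points are shares, lines exact Clopper-Pearson 95% intervals and blue dashes the share of bases in that class. For gene ends the sparse chromosomes together were at 8.15% and the other autosomes at 8.61%, both above their share of bases (5.45% and 5.11%).

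Coding genes with a peak at an end were correspondingly few. On the 4 chromosomes 23 of 4668 coding genes had one (0.493%), against 2.98% on the other 15 autosomes, a contrast that the choice of sparse chromosomes fixes. These 23 genes shared 21 peaks, of 8 to 12 tags, and 10 of the 21 peaks had a deposited q (the caller's adjusted p-value) of at most 0.05. In the whole list 50.6% of peaks had such a q. For 14 of the genes the strand was known, and the nearer end was the start in 8 and the other end in 6.

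On chromosome 18 the highest peak at a coding gene end had 12 tags and 4.63-fold enrichment over background. Its summit lay 106 bp inside Tshz1, a zinc finger transcription factor gene, and 524 bp from Zadh2, an oxidoreductase gene. Thoc1, a messenger RNA export factor gene, and Arhgef37, a guanine nucleotide exchange factor gene, each had a peak of 10 tags and 3.95-fold, at 153 bp inside and 50 bp outside their ends. A peak of 9 tags and 3.59-fold lay 697 bp inside Slc39a6, a zinc transporter gene, and 841 bp from Elp2, an Elongator subunit gene. Mc4r, the melanocortin receptor gene known for appetite control, and Srp19, a signal recognition particle gene, had 8 tags each, at 3.23-fold and 3.07-fold. The last 3 of these peaks had a q above 0.05, with −log10 q of 1.08, 0.76 and 0.76.

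On chromosome 7 the peaks at Ucp2, Mrvi1 and Rusf1 each had 11 tags and a −log10 q of 1.76. Ucp2 encodes a mitochondrial uncoupling protein, and its peak at chr7:100498746-100498909 reached 4.27-fold with the summit 746 bp inside the downstream end. Mrvi1, which encodes a substrate of cGMP-dependent kinase, and Rusf1 were both at 4.31-fold, at 621 bp and 788 bp inside an end. Cd151, a tetraspanin gene, and Sult1a1, a sulfotransferase gene, had 10 tags each, at 3.80-fold and 3.76-fold and at 257 bp and 274 bp inside the start. Peaks at Tmem9b and Zranb1, a deubiquitinase gene, had 9 tags and 3.59-fold, and that at Micalcl had 9 tags and 3.56-fold. Those at Olfr522, an olfactory receptor gene, and Rassf7 had 11 and 8 tags at 3.23-fold and 3.20-fold, and these last 5 peaks had a q above 0.05.

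Chromosome 10 had 3 coding gene ends with a peak. Cirbp, which encodes a cold-inducible RNA-binding protein, had 11 tags and 4.31-fold at 234 bp inside its start. Kiss1r, the kisspeptin receptor gene, had 10 tags and 3.92-fold at 921 bp beyond its downstream end. Ccdc28a had 9 tags and 3.59-fold at 867 bp before its start, with a q above 0.05. On chromosome 6 the ends of Aak1, a kinase gene of clathrin-mediated uptake, and Actg2, a smooth muscle actin gene, had 8 tags and 3.23-fold each, with a q above 0.05.

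The other 8 gene-end peaks lay at records that encode no protein. The highest fold among all 29, 4.67 with 12 tags, was at the microRNA gene Mir3101 on chromosome 7, with the summit inside Rab4b. Peaks of 11 tags and 4.31-fold lay at Gm28863 and at Snord116l16, and one of 9 tags and 3.59-fold between the small nucleolar RNA genes Gm24799 and Gm24088. Small nucleolar RNA genes of this region come in many near-identical copies, and the placement of reads there was not tested. The remaining peaks were at LOC115486548, Gm35249, Gm36751 and C030005K06Rik.

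Peak heights were low and narrow in range, and they are given without a test because they come from the same contrast as the density. Of the 356 peaks, 18 had 7 tags at the summit, 59 had 8, 82 had 9, 82 had 10, 56 had 11, 36 had 12 and 15 had 13. Another 5 had 14 tags, and single peaks had 15, 17 and 85. The median was 10 tags, as on the other autosomes. The median fold enrichment was 3.92 on the 4 chromosomes and 3.59 on the others, with means of 3.81 and 3.75. By chromosome it was 3.95 on 6, 3.92 on 7 and 3.59 on both 10 and 18. Because tags are whole numbers, folds fall on steps, and these medians differ by about 1 step, the worth of 1 tag.

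A q of at most 0.05 was reached by 187 peaks (52.5%, 47.2 to 57.8), next to 50.6% in the whole list. A q of at most 0.01 was reached by 54 (15.2%, 11.6 to 19.3), next to 15.4%. At a q of at most 0.001 there were 4 (1.12%, 0.307 to 2.85), next to 2.45%, and 9 peaks (2.53%, 1.16 to 4.74) were of 5-fold or more, next to 3.79%. The mix of weak and strong peaks was thus near that of the whole list at a q of 0.05 and 0.01, and the 2 highest thresholds left too few peaks to place their shares closely. The background under the peaks, recovered from tags and fold, equalled the genome-wide value of 1.786 tags in 237 peaks (66.6%), against 47.7% on the other autosomes, to within 0.002. This share ran from 62.1% on chromosome 10 to 72.4% on chromosome 18. Among the other 15 it ran from 32.8% on chromosome 3 to 71.2% on chromosome 14, so it was not particular to the sparse chromosomes.

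**Figure D3:**
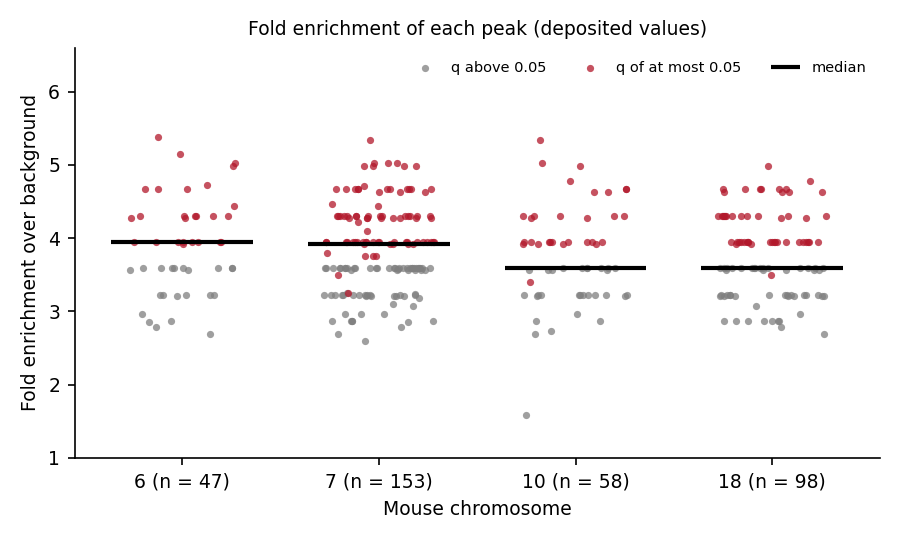
Fold enrichment of each of the 356 peaks by chromosome, as deposited; 1 point is 1 peak, red for a q of at most 0.05 and grey for a q above it, and black lines are medians. Medians lie at 3.95, 3.92, 3.59 and 3.59, and the lowest point, 1.58 on chromosome 10, is the peak of 85 tags.

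The strongest of the 356 peaks by fold was on chromosome 6 at chr6:83752297-83752478, inside Atp6v1b1, which encodes a subunit of the vacuolar proton pump. It had 14 tags, 5.38-fold and a −log10 q of 3.27. The second on this chromosome lay inside Abcg2, a drug efflux transporter gene, at chr6:58606788-58607018. It had 17 tags and the highest −log10 q of the 356 peaks, 3.79, but a background of 2.49 tags that held its fold at 5.16. The next on this chromosome were at the immunoglobulin kappa locus Igk (13 tags, 5.02-fold), 9.75 kb from the vomeronasal receptor gene Vmn1r53 (13 tags, 4.98-fold), and at Igk again (15 tags, 4.72-fold).

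On chromosome 7 the highest peak was inside Abca16, an ABC transporter gene, at chr7:120430615-120430787, with 14 tags, 5.34-fold and a −log10 q of 3.27. Peaks of 13 tags and 5.02-fold lay inside Polr3e, an RNA polymerase III subunit gene, 22.6 kb from Chrdl2, and 108 kb from the oocyte homeobox gene Obox2. A peak of 13 tags and 4.98-fold was inside Nlrp9b, a NOD-like receptor gene, and 3 more peaks with the same tags and fold lay inside Cacng3 and Dpysl4 and 2.71 kb from Iqgap1. Only the peak in Abca16 had a q of at most 0.001 on this chromosome.

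On chromosome 10 a peak inside Hmga2, which encodes an architectural chromatin protein, had 14 tags, 5.34-fold and a −log10 q of 3.27 at chr10:120413522-120413732. It was followed by peaks inside Atcay, a neuronal protein gene (13 tags, 5.02-fold), 99.2 kb from Rhobtb1 (13 tags, 4.98-fold), 43.6 kb from the transcription factor gene Tcf21 (13 tags, 4.78-fold) and 342 kb from Nedd1 (12 tags, 4.67-fold). A peak 132 kb from Lrig3 equalled the last of these in tags and fold. The tallest peak of the 4 chromosomes, 85 tags inside E030030I06Rik at chr10:22142417-22142709, stood over a background of 53.4 tags, so its fold was only 1.58 and its −log10 q 1.08.

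Chromosome 18 had no peak of 5-fold or more and none with a q of at most 0.001 (0 of 98, exact upper limit 3.69%). In the whole list 3.79% and 2.45% of peaks passed these thresholds. Its highest lay inside Onecut2, a homeodomain transcription factor gene, with 13 tags and 4.98-fold. The 5-fold line splits peaks of equal tags. The peak in Atcay on chromosome 10 also had 13 tags, but 5.02-fold over a background of 1.786 in place of 1.809. A peak 12.7 kb from Mbp, the myelin basic protein gene, had 13 tags and 4.78-fold. Peaks of 12 tags and 4.67-fold lay inside Rock1, a kinase gene of the actin cytoskeleton, 437 kb from the Wnt receptor gene Fzd8 and 147 kb from Celf4, an RNA-binding protein gene, and 3 more of the same tags and fold were nearest to Npy6r, Acaa2 and Galr1.

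A cluster was taken as 3 or more peaks with neighbouring summits at most 100 kb apart. There were 11 clusters with 36 of the 356 peaks: 8 on chromosome 7, 2 on chromosome 18, 1 on chromosome 6 and none on chromosome 10. Of 352 distances between neighbours 56 (15.9%) were at most 100 kb, against 40.7% on the other autosomes, as fewer peaks give longer distances by construction. The count depends on the distance chosen, with 4 clusters at 50 kb and 29 at 500 kb.

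The cluster on chromosome 6 held 4 peaks in a 92.9 kb stretch of Igk, from 67606152 to 67699019, with 9 to 15 tags and folds of 5.02, 3.59, 4.72 and 3.95. Igk carries many similar variable gene segments and encodes antibody light chains, which microglia are not known to make. On chromosome 7 a cluster of 4 peaks spanned 169 kb with the genes C2cd3, Ucp3, Ucp2, Dnajb13, Coa4 and Mrpl48, several of which encode mitochondrial proteins. Its peaks had 9 to 12 tags and folds of 4.67 in C2cd3, 4.27 in Ucp2, 3.58 near Coa4 and 3.59 in Mrpl48. The other cluster of 4 spanned 161 kb and 11 coding genes from Doc2a to Mvp, the major vault protein gene, with folds of 3.92, 3.23, 4.67 and 4.10. Its middle pair lay inside Tmem219, including the peak whose upstream bases are shown above.

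The remaining clusters on chromosome 7 held 3 peaks each. They lay from Cyp2f2 to Rab4b (folds of 3.59, 3.56 and 4.67), around Pold3 and Kcne3 (5.02, 3.95 and 3.10) and across Rnf141 and Mrvi1 (2.87, 4.31 and 3.23). Others were nearest to the translation factor gene Eif4g2 (4.44, 4.23 and 3.23), around Zfp688 and Srcap (3.59, 3.59 and 4.71) and around Zranb1 and Ctbp2 (2.96, 3.59 and 3.07). Of the 8 clusters on chromosome 7, all but the one from Cyp2f2 to Rab4b lay beyond 100 Mb. On chromosome 18 the tightest cluster put 3 peaks into 17.7 kb of Ldlrad4, which encodes an inhibitor of TGF-beta signalling, with folds of 2.69, 3.95 and 3.59. The other put 3 peaks into 22.3 kb outside the protocadherin gene Pcdha1, with folds of 2.96, 4.27 and 3.23.

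Genes that held a peak were long. The 186 coding genes with a summit inside had a median length of 104.6 kb, against 15.1 kb for all 4668 coding genes of these chromosomes, and on the other autosomes the medians were 68.3 kb and 18.3 kb. Without the 35 overlapping records of the protocadherin locus of chromosome 18 the median on the sparse chromosomes was 88.2 kb over 151 genes. A longer gene offers more room for a summit, so this is a description only. Cntnap2, a neurexin-family adhesion gene of 2241 kb on chromosome 6, held 4 peaks, at 3.95, 3.95, 3.20 and 2.96-fold with 8 to 10 tags, the nearest of them 91.7 kb from an end. Ldlrad4 held the 3 peaks given above. The other genes with 3 peaks were Gm37013, Gm38666 and Gm38667, long records that run across the protocadherin locus of chromosome 18.

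Of 57 protocadherin records on chromosome 18, 32 counted as genes with a peak, but only 3 peaks were inside them. Clustered protocadherins give neurons their surface identity, and records of the alpha and gamma clusters overlap because variable first exons share constant last exons. A peak of 11 tags and 4.31-fold and one of 9 tags and 3.59-fold lay in the alpha cluster, and one of 8 tags and 3.20-fold in the gamma cluster. With this locus left out, 159 coding genes had a peak inside or at an end, in place of 194.

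Summits lay a median of 22.5 kb from the nearest end of a coding gene, against 30.9 kb on the other autosomes. Medians of the other 15 ran from 13.5 kb on chromosome 11 to 55.8 kb on chromosome 3. Within the sparse chromosomes they differed as well. The median was 12.2 kb on chromosome 7, 21.9 kb on chromosome 10, 32.9 kb on chromosome 6 and 34.9 kb on chromosome 18. Beyond 100 kb lay 61 of the 356 (17.1%, 13.4 to 21.5), against 26.2% (25.2 to 27.3) on the other autosomes, and 33.2% and 37.4% of all bases were that far from a coding gene end. This difference in share was noticed after the values were seen and was not tested. The share was lowest on chromosome 7, 17 of 153 (11.1%), where 24.9% of bases were that far. It was 17 of 98 (17.3%) on chromosome 18 and 13 of 58 (22.4%) on chromosome 10. Single chromosomes among the other 15 ranged from 15.2% on chromosome 9 to 37.9% on chromosome 12. On chromosome 6 the share was 14 of 47 (29.8%, 17.3 to 44.9), and 6 of the 10 summits beyond 500 kb were there. The farthest, with 12 tags and 4.67-fold, was 1545 kb from 4931417E11Rik.

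**Figure D4:**
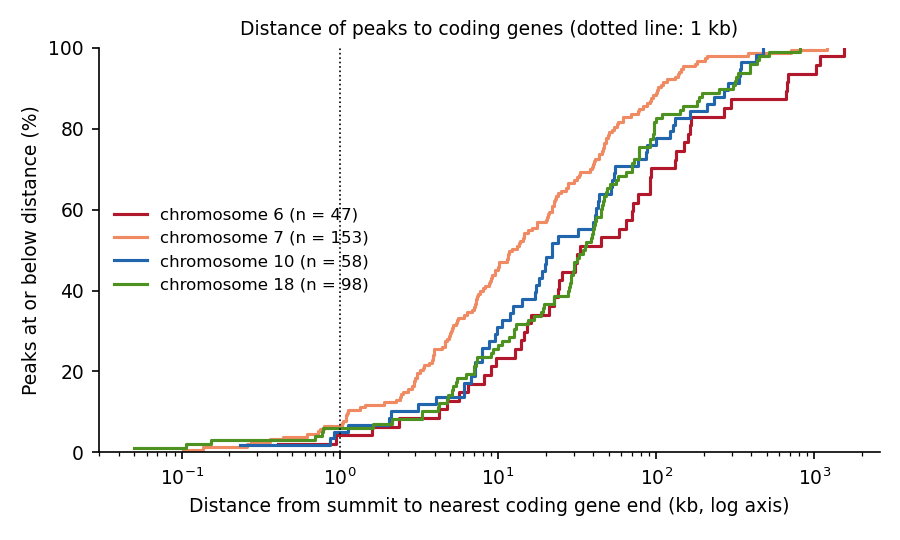
Cumulative share of peaks, in percent, by distance from the summit to the nearest end of a coding gene in kb on a log axis, with 1 line for each of the 4 chromosomes. At the median the line of chromosome 7, at 12.2 kb, lies to the left of those of chromosomes 10, 6 and 18, at 21.9, 32.9 and 34.9 kb, while the lines cross at both ends.

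Gene lists for microglia, inflammation, stress, nuclear receptors, early response, splicing, chaperones and synaptic adhesion had 129 of their 180 entries on these chromosomes. The entries were picked for this description, so that count does not measure where such genes lie. Of all autosomal coding genes, 4668 were on the 4 chromosomes and 15997 on the other 15. A peak inside or at an end was found for 7 of the 129 (5.43%), next to 4.16% of all coding genes on the 4 chromosomes and 15.1% on the other 15. Among 25 microglia and myeloid genes there were 2. Csf1r, the receptor gene on which microglia depend for survival, had 11 tags and 4.31-fold at 5.50 kb from an end, and Itgax, which encodes the integrin CD11c, had 10 tags and 3.95-fold. A second peak of 9 tags and 3.56-fold lay 2.25 kb outside Itgax, and one of 8 tags and 3.19-fold lay 3.92 kb from Coro1a, a leukocyte actin regulator gene.

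Of 22 inflammatory genes, Irf7, an interferon regulatory factor gene, had a peak inside, of 10 tags and 3.95-fold at 1.10 kb from an end. Of 18 oxidative stress, iron and DNA damage genes there were 2, Ucp2 at its end and Bbc3, which encodes the cell death protein PUMA, with 9 tags and 3.59-fold. Among synaptic adhesion genes, Cntnap2 held the 4 peaks given above. None was found for the 12 nuclear receptor, partner and dopamine neuron genes (exact upper limit 26.5%), the 9 immediate early genes (33.6%), the 15 splicing genes (21.8%) or the 7 chaperone genes (41.0%). These upper limits are wide and all lie above 4.16%.

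Gene families were counted in the same way, next to the 4.16% of all coding genes on these chromosomes. Of 335 olfactory receptor genes 1 had a peak inside or at an end (0.299%), and of 247 vomeronasal receptor genes 1 (0.405%), namely Vmn2r55 with 8 tags and 3.23-fold. The counts were 0 of 29 killer lectin-like receptor genes (upper limit 11.9%), 0 of 26 C-type lectin genes (13.2%), 0 of 26 kallikrein genes (13.2%), 0 of 33 taste receptor genes (10.6%) and 0 of 11 Hoxa genes (28.5%), and all these limits lie above 4.16%. Solute carrier genes had 1 of 68 (1.47%), namely Slc39a6. Zfp zinc finger genes had 3 of 127 (2.36%), namely Zfp608, Zfp532 and Zfp516. Tmem genes had 4 of 42 (9.52%), namely Tmem9b, Tmem178b, Tmem41b and Tmem219. Many receptor and lectin genes have near-identical copies, and gene lengths were not compared between families. The part of gene length and of read placement in these counts was not tested.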

How the data were processed

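Libraries were aligned with Bowtie2 to mm10, and MACS2 2.2.6 and ChIPseeker are also listed, per the submitters' processing notes; MACS 2.1.4 stands in the header of the list. Per the file headers, peaks were called on 1 ChIP library against 1 input at a p-value cutoff of 0.001, with 1 tag kept per position. The deposited pileup is a coverage signal in tags, the deposited fold enrichment a ratio of pileup to local background, and the deposited p and q are −log10 values. The q column holds values although the header says q would not be calculated. These are the authors' values, used only to describe, rank and filter peaks.

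Summits were placed against 39334 RefSeq records other than pseudogenes (21887 coding) of GRCm38.p6. The gene table gives no strand or exons; strand came from the promoter table, in which chromosome 18 was not used here. Shares carry exact Clopper-Pearson and densities exact Poisson 95% intervals (scipy 1.17.1), which cover counting error only. Position classes were compared by two-sided Fisher's exact tests, tested on simulated data in which peaks were independent. Members, gene lists and tests were chosen with earlier results of these data known.

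Named were the 5 peaks of highest fold per chromosome (ties split by tags and then position, and peaks tied with the last also named), all coding gene-end peaks, coding genes with 3 or more peaks, the clusters with most peaks (ties at 3 peaks made this all 11), all peaks with a q of at most 0.001 and list members with a peak; other names were chosen after values were seen. One list member is not reported here.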

Additional observations from a re-analysis of the deposited data

How the results depend on the processing

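Between the sparse chromosomes and the other autosomes, no difference in gene-end, gene-body or between-gene share was detected under any of the 13 alternatives run. The lowest adjusted Fisher exact p was 0.374. The odds ratios sat so near 1 that their direction was not stable. For gene ends the ratio turned from 0.941 to 1.01 with a window of 3000 bp, 1.01 at 4-fold or more and 1.02 without chromosome 6, and it was lowest, 0.406 (0.0471 to 1.59), at a q of at most 0.01, where 2 of 54 peaks were left at gene ends. For gene bodies it turned from 1.05 to 0.969 with coding genes only, 0.913 without chromosome 7 and 0.917 without the part of chromosome 7 beyond 100 Mb, an alternative added after seeing the data. Between genes these settings gave 1.05, 1.20 and 1.19. The density ratio of 0.203 became 0.157 without that part of chromosome 7, and stayed between 0.184 and 0.219 under the other alternatives. The number of clusters went from 11 to 4 at 50 kb and 29 at 500 kb, by construction of the distance. No paired analysis was possible because there was 1 library of each kind. A median height of 10 tags limits how well single peaks can be told from background.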

Other observations

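Some peaks of the sparse chromosomes lay in regions known for imprinting, where 1 parental copy is silent; they were picked after their values were seen. A peak of 10 tags and 3.95-fold was inside Igf2, the insulin-like growth factor gene, and its antisense record Igf2os on chromosome 7. The peaks at Snord116l16 (4.31-fold) and between Gm24799 and Gm24088 (3.59-fold) were both inside Snhg14, the host transcript of small nucleolar RNAs of that chromosome.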
